A study of Mus musculus with 24 samples.

Results

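The microRNAs described here are mmu-miR-155-5p, mmu-miR-146a-5p and mmu-miR-146b-5p of the mouse, with their hairpin precursors mmu-mir-155, mmu-mir-146a and mmu-mir-146b. They were chosen by name, as 3 of the 1915 rows of the mature miRNA table and 3 of the 1186 rows of the hairpin table, and all 6 rows were found. Small RNA had been sequenced from 4 materials, namely exosomes (small secreted vesicles) from blood serum, exosomes from the medium of cultured primary hepatocytes, those hepatocytes themselves, and whole liver. Each material had an untreated control, an acetaminophen group and a group given acetaminophen with G-CSF (granulocyte colony-stimulating factor, a cytokine that mobilises granulocytes). For serum and liver the acetaminophen dose was 500 mg/kg and that of G-CSF 100 µg/kg. Hepatocytes and their exosomes received 20 mM acetaminophen and 1 µg/ml G-CSF. Not given in the sources used here were the strain, the age, the time after treatment and how many animals or cultures stood behind a sample.

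The 24 samples are listed once per Ion Torrent instrument, PGM and Proton, while the tables hold 12 columns, 1 per condition, with both instruments combined. There are therefore no replicates, and setting 2 columns side by side shows how those libraries differ, not the treatments. For serum exosomes the sample titles and the treatment field disagree on which treated column carried G-CSF. The treatment field was followed here, and the exchange of those columns is given beside the serum results. In whole liver, fewer cells of a type and less RNA per cell cannot be told apart.

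MiR-155 is processed from the non-coding transcript of the BIC gene (Mir155hg) and is strongly induced in macrophages, dendritic cells and lymphocytes by Toll-like receptor and NF-kB signalling. MiR-146a is induced by the same pathway and represses the adaptors IRAK1 and TRAF6, which lie upstream of NF-kB, so that it is known as a negative feedback regulator. MiR-146b is its close relative from another chromosome. In liver these miRNAs are best known from Kupffer cells and infiltrating leukocytes, and acetaminophen overdose is a model of hepatocyte death followed by sterile inflammation.

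The mature sequences, from the RefSeq table of build GRCm38.p6, are shown because they decide how reads can be assigned. The seed, bases 2 to 8 from the 5′ end and the part that pairs with targets, is in capitals.
mmu-miR-155-5p: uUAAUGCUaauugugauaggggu
mmu-miR-146a-5p: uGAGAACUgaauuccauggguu
mmu-miR-146b-5p: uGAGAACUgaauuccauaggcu
Among the 1679 mature miRNAs of that table, mmu-miR-155-5p was the sole holder of the seed UAAUGCU. The seed GAGAACU was shared by mmu-miR-146a-5p and mmu-miR-146b-5p and by no other entry. The miR-146 sequences are identical over their first 17 bases and differ at 2 of 22 positions, G18A and U21C, written as the miR-146a-5p base, the position from the 5′ end, and the miR-146b-5p base. A read that ends before position 18 therefore fits both.

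The miR-146 hairpins are shown next, with the 5p arm in capitals, because their longest common stretch, of 21 bases, takes in the first 17 bases of that arm.
mmu-mir-146a: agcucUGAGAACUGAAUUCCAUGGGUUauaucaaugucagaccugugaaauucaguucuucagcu
mmu-mir-146b: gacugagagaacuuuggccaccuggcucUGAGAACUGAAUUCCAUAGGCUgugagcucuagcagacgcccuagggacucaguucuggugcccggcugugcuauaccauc
The mir-155 hairpin has no stretch longer than 7 bases in common with either of them. In the GENCODE vM21 annotation of the same assembly, Mir155 (chr16:84714140-84714204, plus strand) lies in an exon of the lincRNA gene Mir155hg. Mir146b (chr19:46342762-46342870, plus strand) lies inside the protein-coding gene Mfsd13a, outside its annotated exons. Mir146 (chr11:43374397-43374461, minus strand), which encodes mir-146a, overlaps no other annotated gene.

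Depth set the limits of every value. Mature totals were 6515, 436 and 692 estimated counts in serum exosomes (control, acetaminophen, acetaminophen with G-CSF, an order kept throughout), 335, 91 and 47 in hepatocyte exosomes, 26741, 5330 and 4450 in hepatocytes, and 49330, 19695 and 43699 in liver. Hairpin totals were 25.1 to 33.7 times the mature totals in all hepatocyte columns, control serum exosomes and the control and G-CSF liver columns. They were 5.65 times in the acetaminophen liver column, which thus stands apart from the other liver columns. In the remaining exosome columns, all of low depth, they were 1.06 to 5.82 times. Intervals of shares are 95% Wilson intervals, a count of 0 allows a share of up to 3 counts of the total, and both cover counting error only. Labelled tissues matched their hepatocyte markers: 5 such miRNAs made up 18.5%, 26.9% and 14.0% of the hepatocyte columns and 27.4%, 42.3% and 15.0% of the liver columns.

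In hepatocytes mmu-miR-155-5p went from near the detection limit in the control to a place among the 26 most abundant miRNAs in both treated columns. Counts were 2 in the control, 46 in the acetaminophen column and 26 in the column with G-CSF added. The corresponding shares were 0.00748% (0.00205 to 0.0273), 0.863% (0.648 to 1.15) and 0.584% (0.399 to 0.855). Both treated intervals lay far above the control interval and overlapped each other. By abundance it was 164th of 284 miRNAs detected in the control, 23rd of 177 with acetaminophen and 26th of 163 with G-CSF added.

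**Figure D1:**
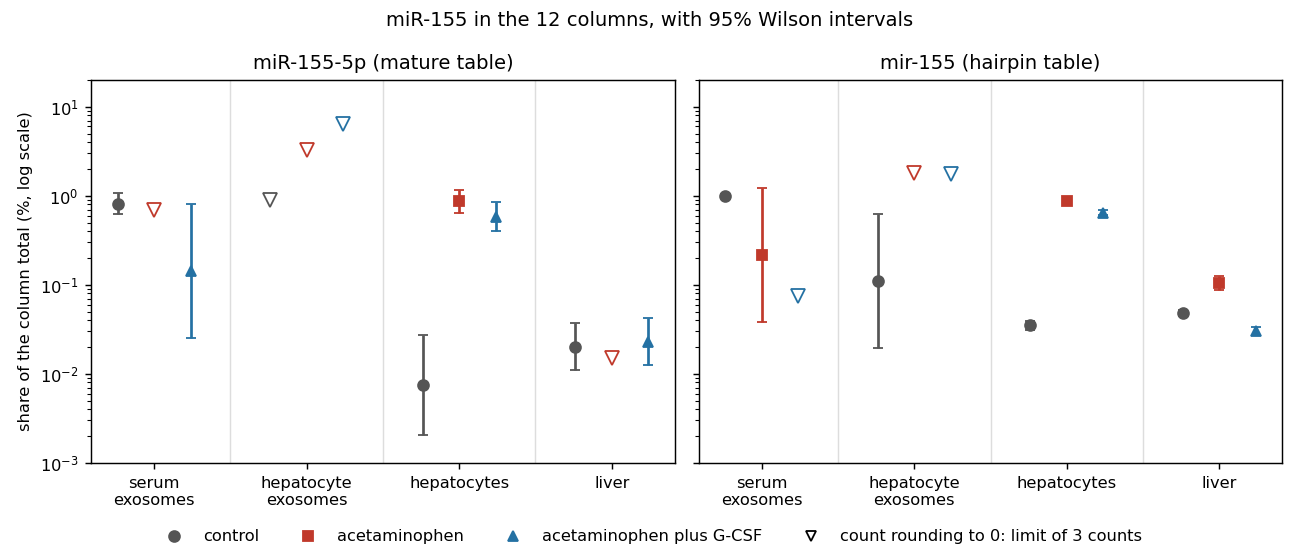
Share of miR-155-5p in the mature total (left) and of mir-155 in the hairpin total (right) for the 12 columns, in percent on a log axis. Points are single columns with 95% Wilson intervals, and open triangles mark the limit of 3 counts where a count rounds to 0. In hepatocytes both treated columns stand above the control in both tables, whereas in liver all mature values are at or below 0.0229%.

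After scaling by trimmed mean of M values (TMM) within hepatocytes, miR-155-5p was 121-fold higher with acetaminophen than in the control, with an exact conditional (Clopper-Pearson) 95% interval of 31.7 to 1030. With acetaminophen plus G-CSF it was 87.5-fold above the control (21.9 to 760). These folds rest on the 2 control counts, which is why their intervals are wide. A miRNA was called different where a column held at least 10 counts, the fold was at least 2 and the interval excluded equality. By this rule both were calls, in comparisons where 53% and 52% of the 100 miRNAs measured were called in either direction. With G-CSF added, miR-155-5p was 1.38-fold lower than with acetaminophen alone (0.838 to 2.33), a difference within counting error that was not called (27.7% of 47 miRNAs were). The treated columns share 1 control, so their folds over it are not separate evidence.

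The hairpin table, a separate count whose rules the sources used here do not state, moved the same way with tighter intervals. Mir-155 had 293, 1572 and 902 counts in hepatocytes (0.0350%, 0.874% and 0.647%). It was 20.4-fold higher with acetaminophen (18.1 to 23.2) and 16.5-fold higher with acetaminophen plus G-CSF (14.5 to 19.0), and both passed the rule, as did 62.3% of 302 and 59.7% of 290 hairpins. Adding G-CSF to acetaminophen went with a 1.24-fold lower value (1.14 to 1.34), whose interval excludes equality but which falls short of 2-fold (22.2% of 230 hairpins were called).

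The hairpin and mature intervals for acetaminophen against control do not overlap. The difference lies in the control column, where mir-155 had 147 hairpin counts for each mature count, a value that rests on 2 mature counts. It compares with 34.2 and 34.7 in the treated hepatocyte columns and 31.4 for that control table as a whole. Control liver, with 10 mature counts, also had more than its table, 62.8 against 26.5. The cause of these gaps was not tested. The other arm, miR-155-3p, had 1 count in control hepatocytes and 0 in the remaining 11 columns, so that in control hepatocytes the 5p arm had 2 of 3 mature counts of this precursor and in the other columns with a count all of them.

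In whole liver mmu-miR-155-5p was scarce in each column. Counts were 10 in the control, 0 in the acetaminophen column and 10 in the G-CSF column, which are shares of 0.0203% (0.0110 to 0.0373), 0 (at most 0.0152% by the limit of 3 counts) and 0.0229% (0.0124 to 0.0421). These intervals overlap, and the Wilson bound for the acetaminophen column reaches 0.0195%. With its 0 set to 3 counts, the acetaminophen column was 1.19-fold lower than the control (exact interval from 0.801). On the same basis G-CSF with acetaminophen was 1.21-fold higher than acetaminophen alone (from 0.812). Both differences have intervals that include equality. Neither was called (50.6% of 160 and 30.2% of 162 miRNAs were), and G-CSF with acetaminophen against control gave 1.01-fold (0.379 to 2.71; 28.7% of 171 called).

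The liver hairpin values ran the other way for acetaminophen. Mir-155 had 628, 118 and 330 hairpin counts (0.0480%, 0.106% and 0.0301%). It was 1.97-fold higher with acetaminophen than in the control (1.60 to 2.40), just under the 2-fold needed (36.1% of 432 hairpins were called). With G-CSF added it was 3.37-fold lower than with acetaminophen alone (2.71 to 4.17), which was a call (31.4% of 379). It was 1.71-fold lower than the control (1.49 to 1.96), which was not (40.4% of 458). Column totals and DESeq2 size factors take the acetaminophen fold past 2, to log2 ratios of 1.14 and 1.02. The acetaminophen column that carries these differences is the one with 5.65 hairpin counts per mature count. The 0 in its mature row and the 118 in its hairpin row do not give the same order of the columns.

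**Figure D2:**
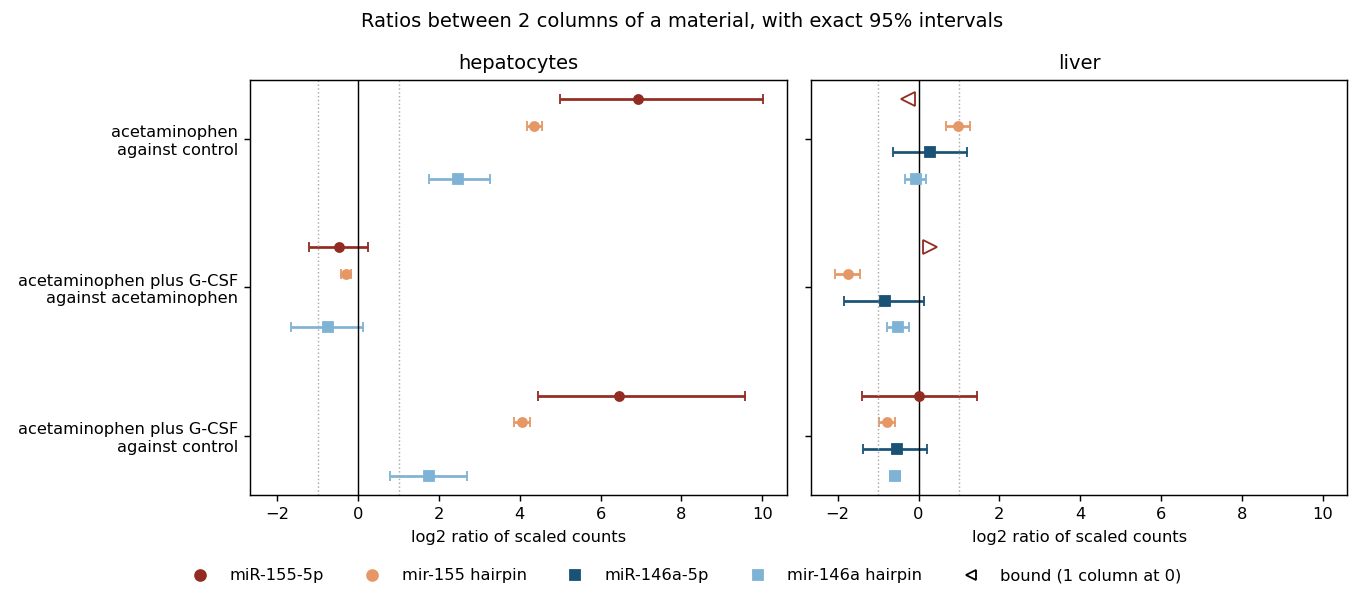
Log2 ratio of TMM-scaled counts between 2 columns of a material, for hepatocytes (left) and liver (right), with exact 95% intervals. Dotted lines mark 2-fold, and arrowheads mark folds for which a count of 0 was set to 3 counts. MiR-146a-5p is left out in hepatocytes, where no column had 10 counts. Treated hepatocytes lie to the right of equality for miR-155-5p and both hairpins, whereas liver values lie within 2-fold of equality apart from mir-155 with G-CSF added.

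The contrast between hepatocytes and liver was tested in a fit over their 6 columns. With treatment as a term and the treatments serving as replicates, miR-155-5p was higher in hepatocytes than in liver by 4.65 on the log2 scale (SE 1.44, adjusted p = 0.0261, edgeR quasi-likelihood test with Benjamini-Hochberg adjustment). In this comparison 5.56% of 180 miRNAs passed. Columns of different treatments are not replicates of a material, so this p too describes these libraries. By shares it was higher in hepatocytes in 2 of the 3 treatments, whereas the intervals of the control columns overlap (0.00748% in hepatocytes, 0.0203% in liver). The call was lost without the acetaminophen columns (2.56, adjusted p = 0.86), without the acetaminophen plus G-CSF columns (3.57, adjusted p = 0.511) and with no filter on low counts (4.34, adjusted p = 0.122). For the mir-155 hairpin the difference was 3.09 (SE 1.11, adjusted p = 0.0488 by edgeR; 11.2% of 498 hairpins passed), and it was lost under those same 3 changes (2.73, 2.23 and 2.69), in a fit of all 12 columns (4.37) and without the treatment term (3.59).

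The response to acetaminophen, taken over the columns with and without G-CSF, was greater in hepatocytes than in liver for miR-155-5p by 7.37 on the log2 scale (SE 1.66, adjusted p = 0.000874, edgeR), where 9.44% of 180 miRNAs passed. For the mir-155 hairpin this difference was 3.61 (SE 1.21, adjusted p = 0.0534, edgeR), which did not pass, with 4.82% of 498 hairpins passing. Without the acetaminophen columns the difference was 6.40 for miR-155-5p, a value with no test. The fit has 2 residual degrees of freedom, and its p does not rest on those alone, because edgeR takes the spread of a row largely from the other miRNAs. The control arm of each material is 1 column (2 counts in hepatocytes, 10 in liver) that is assumed to vary like the treated columns, so the p of this fit describes these libraries. Dose and setting differ between the materials as well, 20 mM in culture against 500 mg/kg in the animal, so that material and dose cannot be told apart. Acetaminophen against control over both materials took the materials as replicates, although their dose and setting differ. It passed for none of the 6 rows in edgeR or in DESeq2, with unadjusted edgeR p of at least 0.0887 in each, and passed for 0.556% of mature miRNAs and 2.01% of hairpins. For miR-155-5p the materials moved apart, from 2 to 46 counts in hepatocytes and from 10 to 0 in liver, so this fit could hardly pass it. With DESeq2 the miRNAs passing numbered 2 mature and 23 hairpin, against 1 and 10 in edgeR.

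In the serum exosome columns miR-155-5p was seen mainly in the control. It had 53 counts there, 0 with acetaminophen and 1 with acetaminophen plus G-CSF. The control share was 0.814% (0.623 to 1.06), the 9th highest of 160 miRNAs detected, against at most 0.688% and 0.145% (0.0255 to 0.814) in the treated columns. By Wilson bounds (up to 0.873% and 0.814%) both treated intervals overlap that of the control, so that over the whole total a fall in mature counts was not detectable at 436 and 692 counts. This rests on the total chosen: with miR-122-5p and miR-30c-5p left out, the control share is 1.89% (1.45 to 2.46) of 2804 counts, and its interval lies above both treated intervals, which stay as they were. If the treated columns are exchanged, as the titles have them, the 0 belongs to G-CSF with acetaminophen and the single count to acetaminophen alone.

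Hairpin counts in serum exosomes were 1817, 1 and 0. These are 1.00% (0.958 to 1.05), 0.217% (0.0384 to 1.22) and at most 0.0745% of the totals. The interval of the column assigned to G-CSF (up to 0.0953%) lies below that of the control, while that of the other column overlaps it. With the columns exchanged, the hairpin count of 0 belongs to acetaminophen alone and the single count to acetaminophen with G-CSF, the reverse of the assignment used. In the same 2 columns all 5 leukocyte, all 4 erythroid and both endothelial markers were at 0 mature counts, and the hepatocyte markers had 0 and 1 counts. The stellate and mesenchymal markers had 3 and 0 counts, the 3 all of miR-145a-5p. In the column assigned to acetaminophen alone their share was thus 0.688%, above the 0.11% of the control, but it rests on 3 counts. MiR-155 was therefore not alone in being at or near 0 in these columns, although 1 marker list did not follow. In hepatocyte exosomes miR-155-5p was at 0 in each column, which allows up to 0.896%, 3.30% and 6.38%, and the hairpin had 1 count in the control. At that depth a share like that of treated hepatocytes, 0.584% to 0.863%, could not have been excluded.

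Mmu-miR-146a-5p and mmu-miR-146b-5p were measured in liver and barely seen elsewhere. In liver both had 35.5, 15.5 and 24 counts, equal to each other in every column. For each of them this is 0.0720% (0.0527 to 0.101), 0.0787% (0.05001 to 0.132) and 0.0549% (0.0369 to 0.0817). The intervals of the 3 columns overlap. Equal values, with a fraction of 0.5 in 2 of the 3 columns, are those of reads divided between rows, so the liver counts do not separate miR-146a from miR-146b and are read here as 1 measurement of 71, 31 and 48 counts.

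**Figure D3:**
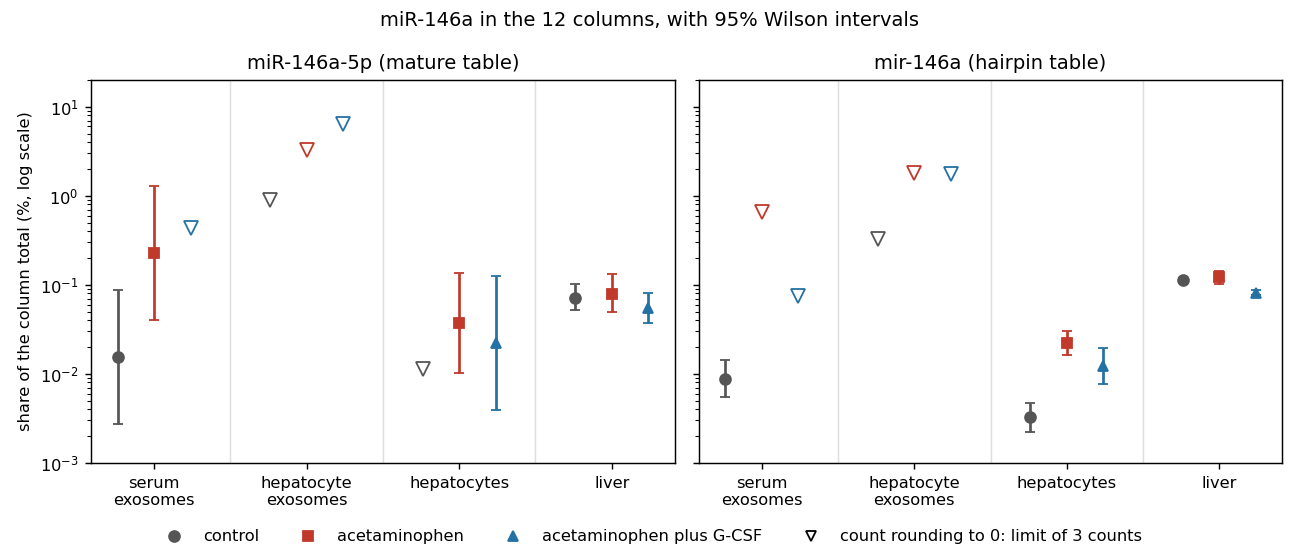
Share of miR-146a-5p in the mature total (left) and of mir-146a in the hairpin total (right) for the 12 columns, in percent on a log axis, with 95% Wilson intervals and open triangles at the limit of 3 counts where a count rounds to 0. MiR-146b is not drawn because its liver counts equal those of miR-146a. Hairpin shares are 0.0811% to 0.122% in liver and 0.00326% to 0.0223% in hepatocytes.

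None of the miR-146 differences in liver was called. The acetaminophen column was 1.22-fold above the control (0.645 to 2.30 for either row). Adding G-CSF went with a 1.78-fold lower value than acetaminophen alone (0.914 to 3.61), which DESeq2 size factors bring to a log2 ratio of -1.03, past 2-fold. The G-CSF column was 1.46-fold below the control (0.859 to 2.59). Hairpins gave narrower intervals: mir-146a had 1479, 135 and 888 counts and mir-146b 1468, 134 and 887. With acetaminophen mir-146a was 1.04-fold lower (0.876 to 1.26), a direction that turns with column totals, where the log2 ratio is 0.10. With G-CSF added it was 1.43-fold below acetaminophen alone (1.19 to 1.72) and 1.498-fold below the control (1.38 to 1.63), and both intervals exclude equality without reaching 2-fold.

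In hepatocytes the mature miR-146 rows were too low to be measured, with 0.5, 2 and 1 counts for miR-146a-5p and 1.5, 3 and 1 for miR-146b-5p. Their hairpins reached the minimum. Mir-146a had 27.3, 40 and 17 counts and mir-146b 25.8, 41 and 17, on totals that fell from 838624 to 179751 and 139361. The shares of mir-146a were 0.00326% (0.00221 to 0.00468), 0.0223% (0.0163 to 0.0303) and 0.0122% (0.00762 to 0.0195), and the treated intervals do not overlap that of the control.

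Mir-146a was 5.58-fold higher with acetaminophen (3.38 to 9.57) and mir-146b 6.05-fold (3.59 to 10.2), and both were calls, in a comparison where 62.3% of 302 hairpins were. With acetaminophen plus G-CSF they were 3.35-fold (1.73 to 6.45) and 3.54-fold (1.79 to 6.74) above the control, also calls (59.7% of 290 hairpins were). The hairpins hold nearly the same counts, so these are not separate calls, and most hairpins measured were called in these comparisons. Between the treated columns they were 1.67-fold and 1.71-fold lower with G-CSF, with intervals (0.924 to 3.14 and 0.9496 to 3.21) that include equality. The direction of these calls was the same under each of the 6 scalings run, with log2 ratios of 1.79 to 2.77 for mir-146a with acetaminophen and 1.01 to 2.06 with acetaminophen plus G-CSF. Without a filter before TMM the log2 ratios of all hairpins shifted by -0.69 and -0.73 in these comparisons. The fold for mir-155 exceeded that for mir-146a by intervals that do not overlap, 18.1 to 23.2 against 3.38 to 9.57.

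Over the 3 treatments together the fitted difference between materials had the opposite sign for the miR-146 hairpins and for mir-155. In the control columns alone mir-155 was also lower in hepatocytes, 0.0350% (0.0312 to 0.0392) against 0.0480% (0.0444 to 0.0519) in liver. Mir-146a and mir-146b were each lower in hepatocytes than in liver, with a log2 difference of -2.78 (SE 0.99, adjusted p = 0.0486 for both, edgeR), against the background of 11.2% of hairpins given above. Treatments served as the replicates here as well, so the p describes these libraries. The lead over the threshold is thin: for mir-146a adjusted p = 0.115 with DESeq2 size factors in the edgeR fit, 0.128 with no filter, and 0.14 to 0.388 when the columns of 1 treatment are left out. The mature rows did not pass (adjusted p = 0.366 for miR-146a-5p and 0.606 for miR-146b-5p, edgeR). The response to acetaminophen did not pass as different between the materials for mir-146a (2.23, adjusted p = 0.419), mir-146b (2.30, adjusted p = 0.396) or miR-146b-5p (2.62, adjusted p = 0.585) in edgeR. MiR-146a-5p did not pass either (adjusted p = 0.269, edgeR), and its fitted size is not given because its control hepatocyte count rounds to 0.

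In exosomes the miR-146 rows held almost no counts, which at these depths does not show a low share. Serum exosomes had 1, 1 and 0 counts of miR-146a-5p and 1, 0 and 0 of miR-146b-5p, and exchanging the treated columns moves 1 count. The control serum hairpin counts were 16 for each, 0.00883% (0.00543 to 0.0143), against 1817 for mir-155 in that column. In hepatocyte exosomes the sole mature count was 1 of miR-146b-5p with acetaminophen, of 91 in all. That is a share of 1.10% (0.194 to 5.97), whose interval lies above those of liver but rests on 1 count. A count of 0 in these columns allows up to 0.896%, 3.30% and 6.38%. Shares like those of liver, 0.0549% to 0.0787%, could thus not have been excluded there. The 3p arms of miR-146a and miR-146b had 0 counts in the 12 columns.

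The order of levels was read from the shares. For miR-155-5p it ran from acetaminophen hepatocytes (0.863%) through control serum exosomes (0.814%), hepatocytes with G-CSF added (0.584%), serum exosomes with G-CSF added (0.145%, or acetaminophen alone if the columns are exchanged), liver with G-CSF added (0.0229%) and control liver (0.0203%) to control hepatocytes (0.00748%), with the other 5 columns at 0. The interval of each column overlaps that of its neighbour in this order. Hairpins separate more of it: control serum exosomes (1.00%), acetaminophen hepatocytes (0.874%) and hepatocytes with G-CSF added (0.647%) do not overlap one another. For mir-146a the liver columns lead (0.122%, 0.113% and 0.0811%), the first 2 with overlapping intervals and the third below them, and acetaminophen hepatocytes follow at 0.0223%.

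Markers of other cell types were read beside these values. The 5 leukocyte markers (miR-142a-3p, miR-142a-5p, miR-223-3p, miR-150-5p and miR-342-3p) summed to 7, 2 and 2 counts in hepatocytes, or 0.0262%, 0.0375% and 0.0449%. MiR-142a-3p, miR-142a-5p and miR-150-5p were at 0 in all 3 hepatocyte columns, while miR-342-3p had 6, 2 and 1 counts and miR-223-3p 1, 0 and 1. In the treated hepatocytes miR-155-5p, with 46 and 26 counts, thus exceeded the whole leukocyte list. In liver the relation was reversed: the list made up 0.898%, 0.820% and 0.821%, while miR-155-5p was at or below 0.0229%. The part of leukocyte RNA in the hepatocyte values of miR-155 was not tested.

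**Figure D4:**
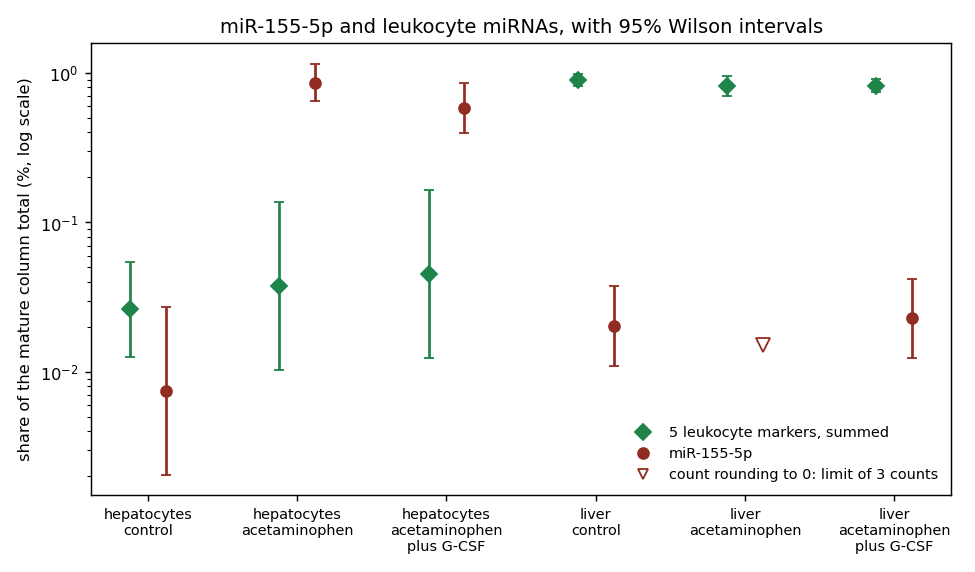
Summed share of the 5 leukocyte markers (diamonds) and share of miR-155-5p (circles) in the mature total of each hepatocyte and liver column, in percent on a log axis with 95% Wilson intervals; the open triangle marks the limit of 3 counts. MiR-155-5p stands above the leukocyte sum in both treated hepatocyte columns and below it in control hepatocytes and in liver.

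Within the liver list 2 of 4 measured markers were called higher and 1 lower with acetaminophen, where 23.1% of all 160 miRNAs measured were called higher and 27.5% lower. MiR-142a-3p had 15, 53 and 13 counts and was 9.89-fold higher with acetaminophen (5.49 to 18.9), and then 11.3-fold lower with G-CSF added (6.05 to 22.5). Between the G-CSF column and the control it did not differ by the rule (1.14-fold lower, 0.505 to 2.60). The mir-155 hairpin was also highest in the acetaminophen column of liver, whereas miR-155-5p was at 0 there. MiR-223-3p, a neutrophil and monocyte miRNA, had 29, 50.5 and 142 counts and was 4.87-fold (2.99 to 7.91) and 4.96-fold (3.31 to 7.68) above the control in the treated columns. MiR-342-3p was 3.63-fold lower with acetaminophen (2.56 to 5.30). The 4 erythroid markers were also higher in the acetaminophen liver column than in the control, 4 of 4 called, with summed shares of 0.195%, 6.36% and 1.11%. The part of these cells in the liver miR-155 and miR-146 values was not tested.

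In hepatocytes both endothelial markers were higher with acetaminophen, as miR-155 was. MiR-126a-3p had 85, 69 and 25 counts and miR-126a-5p 4, 25 and 30, together 0.333%, 1.76% and 1.24%. With acetaminophen they were 4.27-fold (3.06 to 5.94) and 32.9-fold (11.4 to 130) higher, 2 of 2 called, where 26% of all 100 miRNAs measured were called higher. With G-CSF added to acetaminophen they parted: miR-126a-3p was 2.16-fold lower (1.35 to 3.56), a call lost with DESeq2 size factors or with no filter before TMM, and miR-126a-5p was 1.53-fold higher (0.872 to 2.72), not a call. In the G-CSF column miR-126a-5p was called against the control, 50.5-fold higher (17.8 to 197), and miR-126a-3p was called too with DESeq2 size factors or with miR-122 and miR-30c left out of the scaling. The 4 erythroid markers summed to 1, 1 and 0 counts and the 5 stellate and mesenchymal markers to 1.8, 8.8 and 0.8. The part of endothelial or of stellate and mesenchymal RNA in the miR-155 and miR-146 values was not tested.

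Other miRNAs linked to NF-kB and Toll-like receptor signalling included none that was called higher in treated hepatocytes. Of a list of 15, 7 were measured with acetaminophen against control, of which 0 were higher and 4 lower (26% and 27% of all miRNAs measured), with a median log2 ratio of -2.36 beside -0.47 for all 100 miRNAs measured. Except for miR-21a-5p, the members measured against the control, here and with G-CSF added, reached 10 counts in the control column alone. That column was also the deeper (26741 against 5330 and 4450 counts in all). Members measured only through a high control could hardly be called higher, so the 0 and the median follow in part from the filter. The count of lower members was 2 to 6 over the scalings run, and no member was called higher under any of them. MiR-21a-5p, an injury-linked miRNA abundant in cultured cells, fell from 5536 counts to 58, 18.1-fold lower (14.0 to 23.9). MiR-125b-5p (97 to 2 counts) was 9.21-fold lower, and 2 members of the miR-99b, let-7e and miR-125a cluster, let-7e-5p (55.3 to 2.8) and miR-99b-5p (58 to 3), were 3.75-fold and 3.67-fold lower. With G-CSF added, 0 were higher and 3 lower than the control (1 to 5 lower over the scalings; 23% and 29% of all), with a median of -1.22 beside -0.59 for all. MiR-21a-5p was 12.8-fold lower (10.1 to 16.7) and miR-125b-5p 2.88-fold lower (1.19 to 9.08). MiR-99b-5p, at 0 there, was 2.87-fold lower with that 0 set to 3 counts, and its exact interval starts at 2.26. Of the 7 measured, 1 had 10 counts in a treated column and it did not differ between the treated columns by the rule.

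In liver the same list gave mixed directions. With acetaminophen 1 of 10 measured members was higher and 1 lower (23.1% and 27.5% of all miRNAs measured), with a median of -0.71 beside -0.25 for all. MiR-21a-5p had 290, 492 and 942 counts and was 4.75-fold higher (4.10 to 5.51), opposite to hepatocytes, and miR-99b-5p was 6.07-fold lower (3.12 to 13.5). With G-CSF added to acetaminophen, let-7e-5p was 2.96-fold (2.38 to 3.69) and miR-221-3p 2.24-fold (1.39 to 3.80) higher and 0 were lower (17.3% and 13% of all), with a median of 0.25 beside 0.29. Against the control the G-CSF column had 3 higher, miR-21a-5p (3.30-fold), miR-222-3p (2.98-fold) and miR-221-3p (2.24-fold), and 1 lower, miR-99b-5p (3.14-fold), beside 15.8% and 12.9% of all, with a median of -0.39 beside -0.05.

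The miRNAs nearest in profile to each member were found over the 6 columns of hepatocytes and liver, by the root mean square difference of centred log2 (scaled CPM plus 1). For miR-155-5p the nearest of 178 was miR-380-5p, at 1.17 (median of all 5.28), with 19, 57 and 47 counts in hepatocytes and 45, 0 and 12 in liver. MiR-671-5p (2.67) and miR-30c-5p (3.04) were farther away. MiR-671-5p had 42, 3 and 4.5 counts in hepatocytes, which fell where those of miR-155-5p rose, and 22.5, 0 and 5.5 in liver. Like miR-155-5p, miR-380-5p and miR-671-5p were at 0 in acetaminophen liver, and the part of this shared 0 in the likeness was not tested. For miR-146a-5p the nearest were miR-10b-5p (0.56), miR-146b-5p (0.57) and miR-6238 (0.68), and for miR-146b-5p miR-126a-3p (0.44) came before miR-146a-5p. Among hairpins mir-146a and mir-146b were nearest to each other (0.03), followed for both by mir-338 and mir-199b. For mir-155 they were mir-6481 (0.52), mir-5121 (0.65) and mir-5124a (0.66), of which 0 of 3 remained with a prior of 10 CPM. These likenesses are descriptions over 6 columns, and rows that divide reads are not separate.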

How the data were processed

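The deposited values are expected counts (estimated counts, reads matching several miRNAs being divided) per mature miRNA and per hairpin, per the file headers, not scaled to depth; the authors combined the PGM and Proton libraries of a condition in 1 column. Not given in the sources used here were the aligner, genome build and annotation. Per the labels' protocols, total RNA came from a Norgen kit and libraries from an Ion Total RNA-Seq Kit. Counts were rounded, a fraction of 0.5 going to the even number. Within hepatocytes and within liver, TMM factors came from miRNAs with at least 10 counts in 1 of 3 columns. Ratios carry exact conditional 95% intervals. A count rounding to 0 was set to 3 for the fold, while the interval was taken from the count of 0. Exosome columns were described by shares. Fits over 6 columns used edgeR 4.0.16 (R 4.3.3), with DESeq2 1.42.0 as an alternative, and p-values were adjusted over all miRNAs tested. The SE printed with an edgeR fit is the size of the log2 difference divided by the square root of its F statistic, not an SE that edgeR reports. The ratio rule was tried on simulated Poisson counts, and the fit of hepatocytes against liver on simulated counts with the same spread for every miRNA. The fit of the difference in response was not tried in this way. Named miRNAs were the members, their other arms, the 3 nearest profiles, marker lists and called members of an NF-kB list. Members and lists were chosen with earlier results of these data known. Alternatives were other scalings, filters, folds, count minimums, hairpin counts and leaving out columns; rounding 0.5 up, summing the miR-146 rows and the 12-column acetaminophen fit were chosen after seeing the data.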

Additional observations from a re-analysis of the deposited data

Results flagged for a closer look

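The difference of the acetaminophen columns from the control, for miR-155-5p, was greater in hepatocytes than in liver by 7.37 on the log2 scale in the test of that difference (SE 1.66, adjusted p = 0.000874, edgeR quasi-likelihood test). Each material has 1 control column, assumed in that test to vary like the treated ones, so the p describes these libraries. Counts were 2, 46 and 26 in hepatocytes and 10, 0 and 10 in liver, where no difference was called and the hairpin was 1.97-fold higher with acetaminophen (1.60 to 2.40). No group has enough columns for a search for single columns far from the rest.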

How the results depend on the processing

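No paired analysis was possible because each condition has 1 combined column with no replicate number. Of 285 alternatives to the 30 member ratios 267 changed neither call nor value beyond the interval. Alternatives of the fold or count minimum can change a call but not a value, and the miR-146 rows largely repeat each other. The 285 are therefore not separate checks. Hairpin counts moved miR-155-5p in hepatocytes to 4.35 (acetaminophen) and 4.05 (acetaminophen plus G-CSF against control) on the log2 scale, moved it to 0.98 with acetaminophen in liver, and reversed it to -1.75 with G-CSF added there. DESeq2 size factors took miR-146a-5p and miR-146b-5p past 2-fold in liver with G-CSF added (-1.03), and moved mir-155 in hepatocytes to 4.62 and 4.36, mir-155 in liver to 1.02, and mir-146a and mir-146b with G-CSF against control in liver to -0.46 and -0.45. Column totals gave mir-155 4.64 (acetaminophen) and -0.43 (G-CSF against acetaminophen) in hepatocytes, and 1.14 in liver. No filter before TMM gave 3.66 and 3.32. A fold of 1.5 made calls of mir-155 in liver at 0.98 and -0.77. The cause of these shifts was not tested.

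Counts of called miRNAs changed by over 1.5 times with a fold of 3, to 6, 45, 26 and 24 mature and 30, 95, 62 and 103 hairpins, and with a fold of 1.5 to 100 hairpins in hepatocytes with G-CSF added. Of 105 alternatives to the 17 member fits 76 kept call and direction. For hepatocytes against liver, miRNAs passing numbered 24 with DESeq2 and 4 with all 12 columns in mature counts, and 22 with no filter and 0 with 12 columns in hairpins; leaving out the columns of 1 treatment gave 0 to 9 mature and 9 to 90 hairpins. MiR-155-5p was no longer called with no filter (4.34), and leaving out the columns of 1 treatment gave 2.56 to 6.52, called only without the control columns. Mir-155 was no longer called with no filter (2.69), 12 columns (4.37) or no treatment term (3.59), and columns left out gave 2.23 to 4.49, likewise. Both miR-146 mature rows were called in hairpin counts (-2.78). Mir-146a and mir-146b were no longer called with DESeq2 size factors (-2.47), no filter (-3.16), 12 columns (-2.25 and -2.26), no treatment term (-2.56 and -2.54) or columns left out (-3.19 to -1.83 and -3.21 to -1.81). For acetaminophen against control, miRNAs passing numbered 2 with DESeq2, 0 with no filter and 0 with 12 columns in mature counts, and 23, 3 and 0 in hairpins; all 12 columns reversed the members to -1.81 (miR-155-5p), -3.64 (mir-155), -0.92 (mir-146a) and -0.77 (mir-146b), none of them called. For the difference in response, no filter left 4 mature and 9 hairpins passing, and hairpin counts took miR-155-5p below the threshold (3.61). In serum exosomes the miR-155-5p share was 1.89% in the control once miR-122-5p and miR-30c-5p were left out of the total, and the share with G-CSF added was 0 with hairpin counts or with the columns exchanged. Depth limits the exosome columns most: in those given acetaminophen a mature count of 0 still allows a share of 0.434% or more.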
